A study of Caenorhabditis elegans with 2 samples.

Results

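Of 7065 SMA-9::GFP summits that passed the irreproducible discovery rate (IDR) step, 309 were counted inside coding exons or untranslated regions (UTRs) of protein-coding genes. The IDR step compares the ranks of peaks between replicates. The list it gave held the 7065 strongest calls pooled from both replicates, so a place on it does not show that each replicate called the peak. A summit is the position of highest signal that the authors' list gives within a peak. A summit was counted when it lay in annotated coding sequence, a 5′ UTR or a 3′ UTR and was not within 1000 bp upstream of any annotated 5′ end of a protein-coding transcript. Coding sequence held 168 of them, 5′ UTRs 93 and 3′ UTRs 48, in 298 genes in all. The data are chromatin immunoprecipitation sequencing (ChIP-seq) of whole hermaphrodite Caenorhabditis elegans at the L2 larval stage, taken 22 hours after synchronization by starvation at L1 following bleaching. The strain was LW1254, whose integrated array jjIs1254 carries sma-9C2::gfp with the rescue marker unc-119(+) over the unc-119(ed4) mutation, and the tag is described as a C-terminal GFP-FLAG fusion precipitated with an antibody against GFP. There was 1 group of 2 biological replicates, so every larva carried the transgene and no condition could be compared with another. The labels also name a control experiment, which is not analysed here. The array itself carries sma-9 sequence, and its reads could not be separated from those of the endogenous gene. The cells in which the array is expressed are not named, and whole larvae mix all tissues.

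SMA-9 is a large zinc finger protein of the Schnurri family, whose members act with Smad proteins in BMP signalling. In C. elegans the DBL-1 ligand of this pathway sets body size, and SMA-9 is needed for that and for patterning of the postembryonic mesoderm. Transcription factors are mostly studied at promoters and enhancers outside exons. Coding bases also specify a protein, and UTR bases stay in the messenger RNA on either side of the coding sequence. Many worm messenger RNAs are trans-spliced, so an annotated 5′ end is often a splice site and not the place where transcription starts.

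The DNA under the strongest exonic summits is shown first, because later values refer to these sites. Each sequence is 30 bp read 5′ to 3′ on the sense strand of its gene, with the summit at position 16, from the RefSeq genome of build WBcel235. Capitals mark a match to a searched motif on either strand. The motifs of transcription factors were the Smad-type motif GTCTG, the CRE-type motif TGACGT, the E-box motif CACGTG and the GATA-type motif TGATAA. Further motifs were the GA repeat GAGAGA, then TTTCAG, which is the usual splice and trans-splice acceptor, and the polyadenylation signal AATAAA. Shown are pks-1 and srw-85 from coding sequence, dmd-7, C34C12.2 and din-1 from 5′ UTRs, and C05D11.8, catp-5 and adal-1 from 3′ UTRs.
pks-1: actctaaccttatccaagagactcatctcg
srw-85: tcgatacgtagatttcgcaatcaagataaa
dmd-7: tttgaaggctgcacgtactcggtgcaaaag
C34C12.2: ggtGTCTGCAGACtttttgcgcgatgcaag
din-1: acaaatcgacgattccattcttcacatatt
C05D11.8: agttagacagtGTCTGacgccgtggagacg
catp-5: tactacacatctgctagaaacacACGTCAc
adal-1: acgcagcgaaatcccaacgcgtgacagcca
These sites lay at X:5429524-5429553 for pks-1, V:19429789-19429818 for srw-85, V:6247472-6247501 for dmd-7, III:3456402-3456431 for C34C12.2, II:11619406-11619435 for din-1, III:6421226-6421255 for C05D11.8, X:8090109-8090138 for catp-5 and II:6892012-6892041 for adal-1. The genes srw-85, din-1, C05D11.8, catp-5 and adal-1 are on the reverse strand and the other 3 on the forward strand. Of the 15 sequences examined in this way, the 5 strongest of each class off 1 chromosome that was left out, 3 held a searched motif within the 30 bp. At C34C12.2 the Smad-type motif and its reverse complement met head to head and formed a palindrome.

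A second set shows the GATA-type motif, which was more frequent at exonic summits than at the others. These are the 30 bp around the TGATAA match nearest the summit for the 4 strongest exonic summits outside the same chromosome that held one within 50 bp, and they were picked after the motif counts were seen. Capitals mark the match, which reads TTATCA when it lies on the antisense strand.
tps-1: agtgatgtcagcTGATAAgaagaacatttg
sur-7: cacgagtgagttTTATCAtctccgttgtgg
T22F3.10: tcattaccttccTTATCAtttcccatatcc
kqt-2: tttacgtcatcaTTATCAccacgtgctcta
The matches lay 36.5 bp, 24.5 bp, 35.5 bp and 23.5 bp from the summits of tps-1, sur-7, T22F3.10 and kqt-2. The windows were X:17471845-17471874 for tps-1, X:16378093-16378122 for sur-7, V:3610915-3610944 for T22F3.10 and X:8243314-8243343 for kqt-2, with sur-7 on the forward strand and the others on the reverse strand. The kqt-2 window, in a 3′ UTR, also held the CRE-type motif on the left of the capitals and the E-box on the right.

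Exonic summits were few and weak beside the rest of the IDR list. They made up 4.37% of it (95% Wilson interval 3.92 to 4.88%, which like all intervals here covers counting error over peaks only), whereas the bases that meet the same rule made up 24.5% of the nuclear genome. The 3 classes differed in this respect. Coding sequence had 7.88 summits per megabase, 3′ UTRs 20.3 and 5′ UTRs 108, beside 70.5 per megabase for all IDR summits. The 5′ UTRs were thus above the average of the genome and the other classes below it. The number depends on the zone left out upstream of genes: before that exclusion 536 IDR summits were exonic, 227 of which were left out. The closest summit kept was 1011 bp upstream of a 5′ end and the farthest left out was 998 bp upstream.

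Peak signal, the caller's own value with no fixed range, had a median of 88.5 at exonic summits (quartiles 71.1 and 120.4), which was 81.1% of the median of 109 over all IDR peaks. The signals of each replicate were also read at these summits, where it had a call. The exonic median was 82.1% of the median of all IDR summits in replicate 1 and 82.2% in replicate 2. The summits had been picked by pooled signal, so these values are not independent of it. Coding summits were the weakest class, with a median of 82.2, and 25% of them ranked in the stronger part of the list when it was divided at its median (42 of 168, 19.1 to 32.1%). The median was 98.2 in 5′ UTRs and 92.8 in 3′ UTRs, with 43.01% (40 of 93, 33.4 to 53.2%) and 33.3% (16 of 48, 21.7 to 47.5%) in the stronger part. The coding share minus the 5′ UTR share was -18.01 percentage points (95% Newcombe interval -29.8 to -6.11). Intronic summits, which here take in stop codons that the annotation lists apart from coding sequence, had a median of 101.8 and upstream summits of 117. Among the 1000 strongest IDR peaks there were 22 exonic summits, of which 11 were in 5′ UTRs, 7 in coding sequence and 4 in 3′ UTRs.

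**Figure D1:**
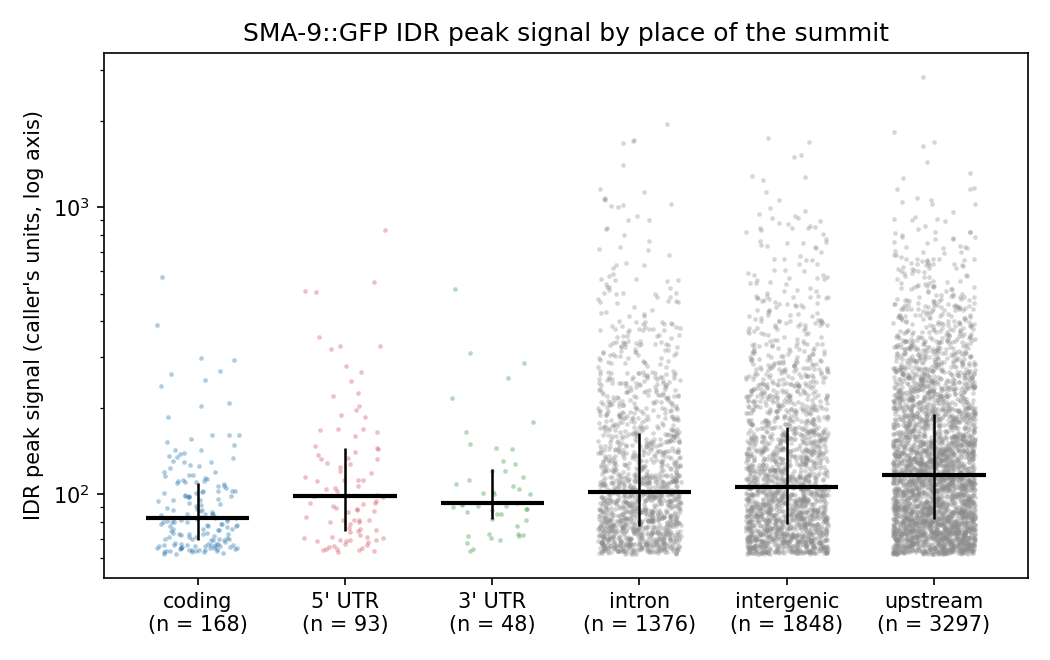
IDR peak signal (log axis, the caller's units) by the place of the summit. Each point is a peak, the horizontal bar is the median and the vertical bar spans the quartiles. The coding median of 82.2 lies lowest and the upstream median of 117 highest, and all classes reach down to about 62, where the list ends.

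The list ended by signal alone. The weakest pooled call that passed IDR had a signal of 61.9576 and the strongest that did not pass had 61.9564. At exonic summits the 3 values just inside were 62.2, 62.02 and 61.99, and the 3 just outside were 61.7, 61.6 and 61.5. The pooled list of 30000 calls, made by the authors from both replicates with background kept in, held 6304 calls in exons, 21.01% of its calls. Of these 4.90% passed (309 of 6304, 4.396 to 5.46%), beside 23.6% of all pooled calls. The share was 3.18% in coding sequence (168 of 5276) and 7.57% in 3′ UTRs (48 of 634). In 5′ UTRs it was 23.6% (93 of 394, 19.7 to 28.04%), about the same as the background, and in introns and upstream regions it was 20.9% and 34.6%. Because the list ends at a signal value, these shares and the signals are the same information seen in different ways.

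Exonic calls became more common as calls became weaker, in each replicate as in the pooled list. Among the 6000 strongest pooled calls 3.82% were exonic (3.36 to 4.33%), and in the following groups of 6000 the share was 12.4%, 23.6%, 31.8% and 33.5%. It went from 4.55% to 33.6% in replicate 1 and from 3.95% to 28.7% in replicate 2. Coding sequence carried this, from 1.92% to 29.7% in the pooled list. The 5′ UTR share stayed between 1.13% and 1.68% in all 5 pooled groups. In the weakest groups the exonic share exceeded the 24.5% of bases that are exonic in all 3 lists.

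**Figure D2:**
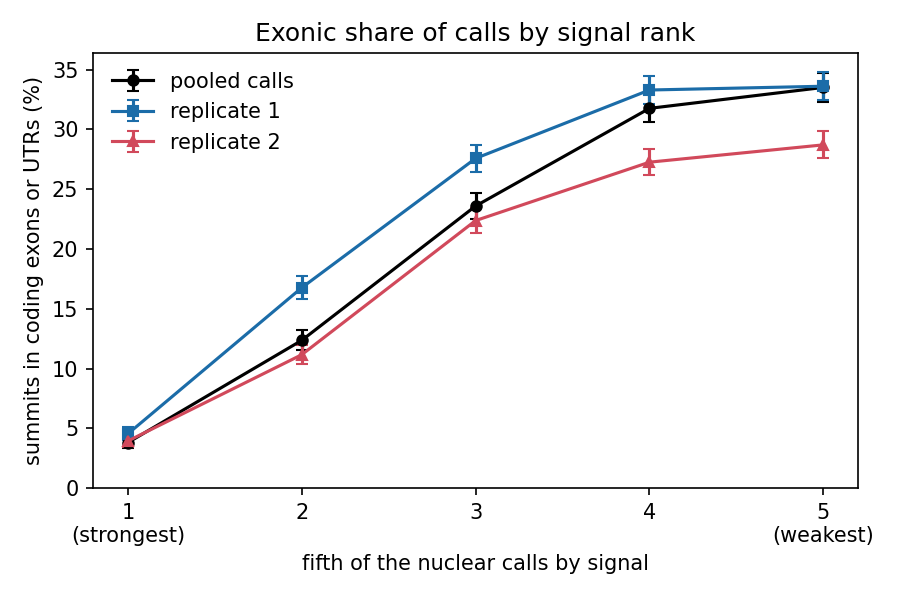
Share of summits in coding exons or UTRs (y axis, percent) among nuclear calls ranked by signal and divided into 5 equal groups (x axis), for the pooled list and each replicate, with 95% Wilson intervals. The share rises from 3.82% to 33.5% in the pooled list, and replicate 1 lies above replicate 2 in every group.

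Both replicates had a call over most exonic summits. There was a call at the summit in both for 292 of 309 (94.5%, 91.4 to 96.5%), beside 95.2% of all IDR summits. Replicate 1 lacked a call at 5 and replicate 2 at 13. The exception to both was F17H10.1, a coding summit with a pooled signal of 65.9 and no call at the summit in either replicate. Both calls were present at 156 of 168 coding, 89 of 93 5′ UTR and 47 of 48 3′ UTR summits. A narrower count, which asked for a call among the 7065 strongest nuclear calls of each replicate, gave 188 of 309 (60.8%, 55.3 to 66.1%), beside 71.8% of all IDR summits. The difference from the other IDR summits was -11.4 points (-17.1 to -6.06). Within the weaker part of the list the shares were 44.5% of 211 exonic and 47.98% of 3322 other summits, a difference of -3.43 points (-10.2 to 3.52). Within the stronger part they were 95.9% of 98 and 95.8% of 3434. Within each part the interval of the difference included 0. The parts were divided by pooled signal, which comes from the same replicates. In the stronger part nearly all summits of both groups had such calls, and in the weaker part the interval was wide. Whether the lower share over the whole list goes with the lower signal of exonic summits was therefore not tested.

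The classes again differed. Calls among the strongest of both replicates lay over 55.4% of coding summits (93 of 168), 63.4% of 5′ UTR summits (59 of 93) and 75% of 3′ UTR summits (36 of 48). The 3′ UTR share was 19.6 points above the coding share (4.04 to 32.2 points). The median signal was also higher in 3′ UTRs, at 92.8 against 82.2, and the classes were not compared at matched signal. Over the 292 summits with both calls the signals of the replicates had a Spearman's rho of 0.461, beside 0.714 over 6435 other IDR summits. This is a description across peaks that share libraries. Among the exonic summits of the stronger part rho was 0.540 (n = 97), and among those of the weaker part -0.147 (n = 195). The corresponding values for other summits were 0.727 and -0.187. The weaker part spans a narrow range of pooled signal, from 61.96 to 109, in exonic and other summits alike. Pooled signal comes from both replicates, so within such a range a higher value in 1 replicate tends to go with a lower value in the other. The values by part therefore do not measure how well the replicates agree. The weaker part held 195 of the 292 exonic and 3116 of the 6435 other summits, so 0.461 and 0.714 cover unlike mixes of signal.

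**Figure D3:**
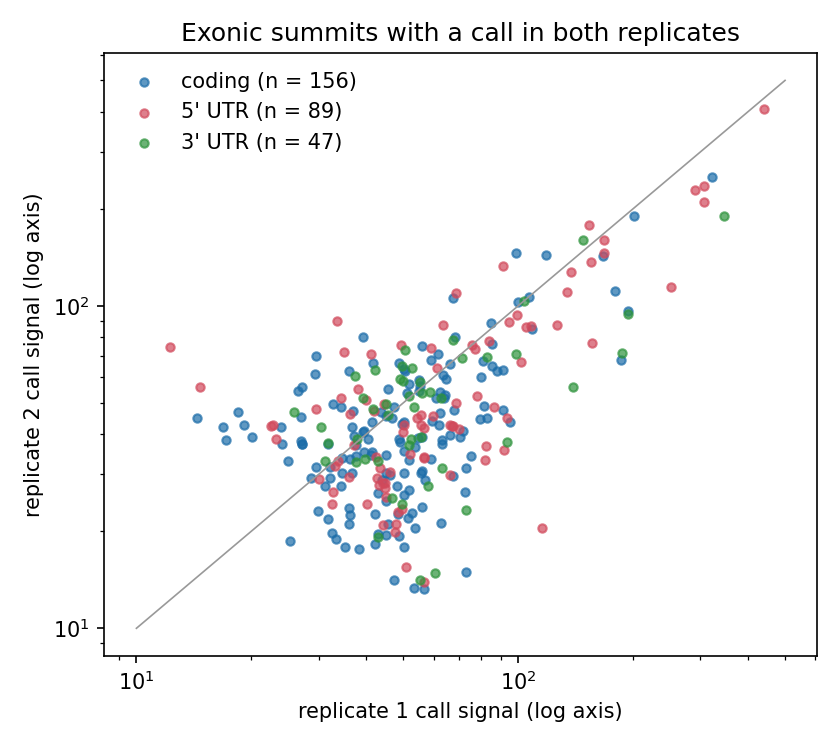
Signal of the replicate calls over the 292 exonic summits with a call in both replicates (x axis replicate 1, y axis replicate 2, log axes), colored by class, with the line of equal values. The strongest point, dmd-7, lies near the line at 441 and 408, while others of high signal lie well off it, such as sur-7 at 185 and 67.7. Replicate 1 was the higher in 197 of 292 (67.5%), beside 71.8% of 6435 other IDR summits with both calls. The scales of the lists were not matched.

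In coding sequence the strongest summit lay in pks-1 (WBGene00016558), which encodes a polyketide synthase, at X 5429433 to 5429641 in exon 22 of 31. Its pooled signal was 569, rank 171 of the IDR list, and its replicate signals were 322 and 250, ranks 175 and 180 among the nuclear calls of replicates 1 and 2. Both replicates thus placed it at the same level. It lay 15729 bp from the nearest 5′ end of the gene and 21730 bp from the next IDR summit, so no promoter summit was near. Y18D10A.4 followed with 388 (201 and 189 in the replicates), 62 bp into a gene of 2 exons, with GTCTG and GAGAGA within 50 bp. The chemoreceptor gene srw-85 had 298 (167 and 143) in exon 4 of 5, with the whole peak in exons. The gene with 1 exon, M163.1, had 294 (179 and 112), and R02D5.9 had 269 (194 and 96.04).

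Below these, tps-1, which encodes trehalose 6-phosphate synthase, had a coding summit of 263 (118 and 144) in exon 7 of 21 at X 17471834 to 17471969, with every base of the peak exonic. It lay 1184 bp from an intronic summit of 182. The other trehalose synthase gene, tps-2, had a coding summit too, at 68.3, and was chosen after its values were seen. The summit in sur-7, a cation diffusion facilitator gene found as a suppressor of Ras signalling, had a signal of 249 but differed between replicates, at 185 (rank 582) and 67.7 (rank 2354). It was exonic in some annotated transcripts of the gene only. The same held for the summits of din-1, C27A7.5, W01C8.5 and unc-62 and the coding summit of lfe-2, which are described below. The potassium channel gene twk-34 leaned the other way, with 98.9 (rank 1830) and 146 (rank 583) beside a pooled 239. K09C4.5 and F58G1.7 completed the 10 strongest with 207 and 202, each with nearly equal replicate signals. That of F58G1.7 lay 361 bp from a stronger intronic summit of 264. The weakest coding summit, in the DEG/ENaC channel gene del-5, had a signal of 62.0, with 42.9 and 19.6 in the replicates.

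The strongest exonic summit of all lay in the 5′ UTR of dmd-7 (WBGene00019521), a gene of the DM domain family of transcription factors, at V 6247347 to 6247602. Its signal was 830, rank 72 of the IDR list, with 441 and 408 in the replicates. It was 556 bp into an exon of 2360 bp and 766 bp from the strongest peak of the whole list, which lies upstream of the gene with a signal of 2844. The annotated 5′ UTR of C34C12.2 is likewise long. Its summit at III 3456325 to 3456510 had a signal of 548 (307 and 234.96) and lay 2631 bp into an exon of 2829 bp. The nearest other IDR summit, of 547, was 3837 bp away and in the upstream zone of a different gene. The summit in din-1, which encodes a corepressor partner of the nuclear receptor DAF-12, had 512 (290 and 229), at 658 bp from a 5′ end and 693 bp from an upstream summit of 440.

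Of the other strong 5′ UTR summits, 4 lay within 100 bp of the annotated start. The summit of ints-4, a subunit of the Integrator complex that processes small nuclear RNAs, had 506 (308 and 210) at 34 bp. The cytochrome P450 gene cyp-13A2 had 329 (153 and 177) at 83 bp, C27A7.5 had 327 (168 and 160) at 23 bp and W01C8.5 had 321 (167 and 145) at 88 bp. Their ranks ran from 195 to 863 in replicate 1 and from 258 to 586 in replicate 2. The noncoding RNA gene W01C8.13 overlaps the W01C8.5 summit. The remaining members of the 10 strongest lay farther in. F46C5.10 had 354 at 485 bp from its 5′ end, rsbp-1, which encodes an RGS-binding protein, had 280.0 at 968 bp, and ZK484.6 had 266 at 241 bp. F46C5.10 was uneven, with 251 in replicate 1 (rank 310) and 115 in replicate 2 (rank 956). The weakest 5′ UTR summit, in the sodium-proton exchanger gene nhx-3, had 63.1, with 29.5 in replicate 2 and no call in replicate 1.

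Among 3′ UTRs the gene C05D11.8 (WBGene00015485) led with 2 summits in its last exon of 1822 bp. The stronger, at III 6421050 to 6421385, had a signal of 520.0 (345 and 190) and lay 470 bp before the annotated 3′ end. The weaker, at III 6422295 to 6422373, had 178 (139 and 55.9). Both replicates had the first site well above the second. The summit of eat-16, an RGS protein gene that restrains Gq signalling, had 309 (148 and 160) at 857 bp from the 3′ end. That of catp-5, a P-type ATPase gene, had 287 (194 and 94.5), and that of adal-1, an adenosine deaminase-like gene, had 253 (186 and 71.3). Replicate 1 was the higher at both of these, also by rank. The ranks were 522 and 1371 for catp-5 and 573 and 2165 for adal-1 in replicates 1 and 2.

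The KCNQ-type potassium channel gene kqt-2 had 216 in its 3′ UTR with 103 and 104 in the replicates, and 4 of the searched motifs within 50 bp of the summit. F37C4.6 had 165, the monocarboxylate transporter homologue slcf-1 had 149, B0222.5 had 145 and the globin gene glb-3 had 144. These 4 ranked between 1926 and 2363 of the IDR list, so beyond the leading 5 the 3′ UTR signals were moderate. The weakest 3′ UTR summit, in the SWEET sugar transporter gene swt-3, had 63.3 (37.7 and 32.8) and lay 60 bp from the 3′ end.

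Of the 298 genes, 11 had more than 1 exonic summit, and each of these had 2. In dmd-7 the second summit was coding and weak, at 84.6 with 19.1 and 42.6 in the replicates. F22D3.4 had both in 1 long 5′ UTR exon, at 203 and 169, 668 bp apart. The homeobox gene unc-62, a Meis homologue and cofactor of Hox proteins, also had both in a 5′ UTR exon, 408 bp apart, at 104 and 99.5. The replicates ordered them differently, with 69.9 and 41.6 at the first and 41.2 and 70.9 at the second. In ccd-5 both were coding, at 129 and 81.2, and in nipi-3, a Tribbles-like kinase gene of the epidermal immune response, both were coding at 80.4 and 69.4. The summit of nipi-3 at 80.4 lay 1044 bp from an upstream summit of 522.

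In cutl-27, a cuticlin-like gene, a coding summit of 123 and a 3′ UTR summit of 71.5 were 819 bp apart, and a noncoding RNA gene overlaps the second. C15H9.2 had 98.2 in its 5′ UTR and 64.1 in coding sequence. The inositol trisphosphate kinase gene lfe-2 had 75.1 in coding sequence and 64.6 in its 5′ UTR. W06H8.6 had 84.9 and 72.7 in a 3′ UTR exon of 3057 bp that a noncoding RNA gene overlaps, and replicate 2 had no call at the first. All of these were at or below the upper quartile of exonic signals apart from the first of cutl-27. A noncoding RNA gene lay over 9 of the 309 summits, and at those the exon could not be told apart from the noncoding gene as the annotated target.

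The position within the gene followed the class. Of the coding summits 103 were in internal exons, 37 in last exons, 21 in first exons and 7 in genes of 1 exon. Of the 5′ UTR summits 87 were in first exons. All 93 5′ UTR summits together lay at a median of 92 bp from the nearest 5′ end of their gene (quartiles 32 and 394). The 3′ UTR summits lay at a median of 228.5 bp before the 3′ end, with 14 of 48 within 100 bp of it. Within 1000 bp downstream of a 5′ end lay 45.8% of coding summits (38.5 to 53.4%), beside 40.1% of coding bases under the same rule. For 5′ UTRs the shares were 92.5% of summits and 92.7% of bases, and for 3′ UTRs 20.8% and 16.4%. Within each class the base share was inside the interval of the summit share. Over all exonic summits the share was 55.99% against 39.7% of bases, and this went with the larger part of 5′ UTRs among summits.

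**Figure D4:**
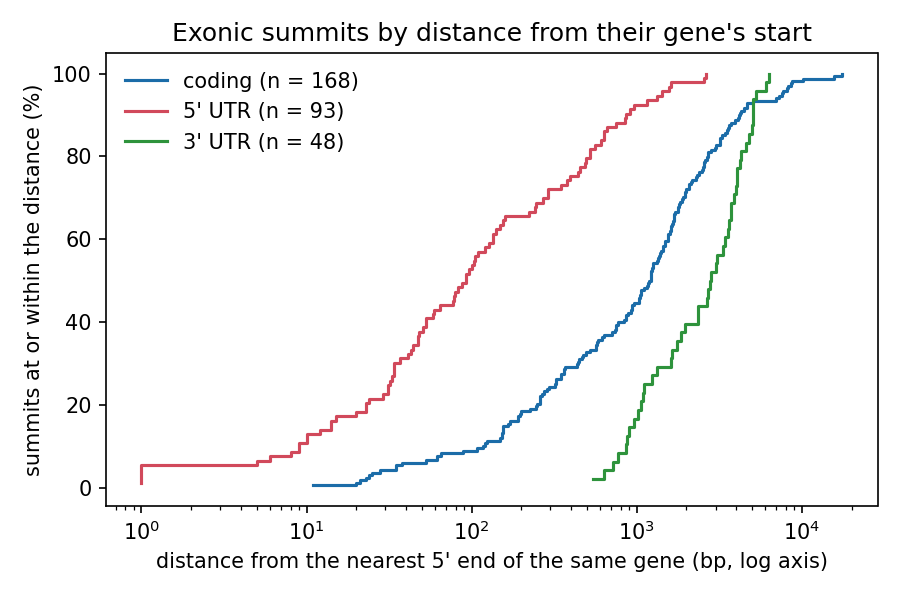
Cumulative share of exonic summits (y axis, percent) by distance from the nearest annotated 5′ end of the same gene on its upstream side (x axis, bp, log axis, with a distance of 0 drawn at 1), for each class. The 5′ UTR curve passes its middle near 92 bp and the 3′ UTR curve near 2792 bp.

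Many peaks reached past an edge of their exon. The median exon was 303 bp long and 81.6% of exonic peaks had the most common width of 270 bp. The whole peak was inside the exon in 95 of 309 (30.7%), and the median share of peak bases in exons was 80.7%. It was 73.5% for coding, 89.3% for 5′ UTR and 100% for 3′ UTR summits. In 270 of 309 (87.4%) the summit was exonic in every annotated transcript that spans it, with 162 of 168 coding and 64 of 93 5′ UTR summits. For 83.5% of exonic peaks and 70.4% of all IDR peaks the summit was within 1 bp of the peak's centre, so the summit often gives no finer position than the interval.

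Coding summits were unevenly spread over the chromosomes. The X chromosome held 31.0% of them (52 of 168, 24.5 to 38.3%), beside 15.5% of coding bases under the rule and 20.7% of the coding pooled calls that did not pass. It held 12.9% of 5′ UTR summits (12 of 93, 7.54 to 21.2%), beside 18.4% of 5′ UTR bases. The difference between the classes was 18.05 points (7.50 to 27.2). Of all other IDR summits 24.04% were on the X chromosome, and coding summits exceeded this by 6.91 points (0.334 to 14.3). By class the share was 26.0% of intronic, 27.8% of intergenic and 20.3% of upstream summits. The intronic and intergenic shares lay inside the interval of the coding share. For 3′ UTRs the share was 22.9% of summits and 21.9% of bases.

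Of the 298 genes, 95 (31.9%, 26.8 to 37.4%) also had an IDR summit within 1000 bp upstream of one of their own 5′ ends, beside 18% of all protein-coding genes. The share was 36.1% for genes with a coding summit (60 of 166), 30.4% for 3′ UTRs (14 of 46) and 24.2% for 5′ UTRs (22 of 91, 16.5 to 33.9%). Most of these genes thus had no upstream IDR summit. They were not matched to all protein-coding genes for length or number of annotated 5′ ends. Another IDR summit of any kind was within 1000 bp of 67 of 309 exonic summits (21.7%, 17.5 to 26.6%), a difference of -4.83 points from the other IDR summits (-9.19 to 0.209). Of intronic summits 33.8% had such a neighbor, and the difference from them was -12.1 points (-17.05 to -6.61). Of upstream summits 21.3% had one, and the difference was 0.421 points (-4.05 to 5.53). A stronger neighbor within 1000 bp was present at 37 exonic summits (11.97%), a difference of -1.98 points from the other IDR summits (-5.26 to 2.19).

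The GATA-type motif TGATAA was more frequent at exonic than at other IDR summits. It lay within 50 bp of 93 of 309 exonic summits (30.1%, 25.3 to 35.4%), on either strand, beside 19.9% of other IDR summits, 10.2 points more (5.29 to 15.6). In windows of the same length centred 250 bp to either side it was found in 9.71%, and at the 5995 exonic pooled calls that did not pass IDR in 11.4%. The excess was present in coding sequence (31.0%) and 5′ UTRs (32.3%), each above the other IDR summits by an interval that did not reach 0 (4.52 to 18.5 and 3.71 to 22.5 points). In 3′ UTRs it was 22.9%, 3.05 points above with an interval from -6.60 to 16.7. It was seen in the stronger part of the list, at 31.6% against 18.9%, and in the weaker part, at 29.4% against 20.8%. The nearest match was a median of 22.5 bp from the summit. Only matches within 50 bp were counted, and an even spread over that window would give a similar median.

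The repeat GAGAGA went the other way. It was found at 14.2% of exonic summits (44 of 309, 10.8 to 18.6%) and 26.1% of other IDR summits, a difference of -11.9 points (-15.5 to -7.41). For coding summits the difference from the other IDR summits was -16.6 points (-20.3 to -11.1). It was -3.53 points for 5′ UTRs (-10.9 to 6.01) and -11.5 points for 3′ UTRs (-18.9 to 1.10). The UTR intervals extended to positive values, so the lower share was clear in coding sequence only. Coding summits had the motif least often, at 9.52%, and 5′ UTR summits had it in 22.6%, a difference of -13.1 points (-23.2 to -3.98). The flanks of exonic summits had it in 7.12%, so the share over all exonic summits was still above its surroundings. By class, 5′ UTR flanks had 6.99%, well below the 5′ UTR summits. For coding summits the interval of 5.95 to 14.9% overlapped that of their flanks, 5.09 to 10.8%. The 3′ UTR intervals overlapped as well, at 7.25 to 27.2% and 2.90 to 13.0%. The flanks were not matched for exon content. With a median exon of 303 bp and a median of 60 bp from summit to exon edge, many flanks reached outside the exon. This limits every comparison with flanks given here. The median GC content of the 50 bp on either side was 42.6% at exonic and 43.6% at other IDR summits, and 40.6% at exonic calls that did not pass.

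The Smad-type motif GTCTG was found at 15.9% of exonic and 18.7% of other IDR summits, a difference of -2.82 points (-6.59 to 1.76), and in 10.5% of flanks. The E-box CACGTG had 7.44% and 7.36%, with 3.07% in flanks, and the CRE-type motif TGACGT had 8.41% and 7.71%, with 2.10% in flanks. For these 3 the interval of the difference between all exonic and other summits included 0. Coding summits taken alone had GTCTG in 12.5%, a difference of -6.18 points from the other IDR summits (-10.5 to -0.256). Each of the 3 had a higher share at exonic summits than in their flanks, although the intervals overlapped for GTCTG, at 12.2 to 20.3% and 8.34 to 13.2%. CACGTG reads the same on both strands, and no searched motif contains another.

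The splice acceptor and polyadenylation motifs were less frequent at exonic summits than beside them, as they were over all IDR summits, where TTTCAG had 6.34% against 18.2% in flanks and AATAAA 10.5% against 24.8%. For AATAAA the 3′ UTR summits did not have a lower share than their flanks. The acceptor TTTCAG was found at 10.03% of exonic summits (7.16 to 13.9%) and in 19.6% of the flanks (16.6 to 22.9%), beside 16.6% of exonic calls that did not pass and 6.17% of other IDR summits. The polyadenylation signal AATAAA was found at 14.6% of exonic summits, in 23.8% of flanks, at 12.03% of exonic calls that did not pass and at 10.3% of other IDR summits. In 3′ UTRs it reached 27.1% (13 of 48, 16.6 to 41.0%), beside 20.8% of their flanks (20 of 96), and was 17.6 points above coding summits (5.74 to 31.9), and 27.3% of 3′ UTR calls that did not pass had it too.

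**Figure D5:**
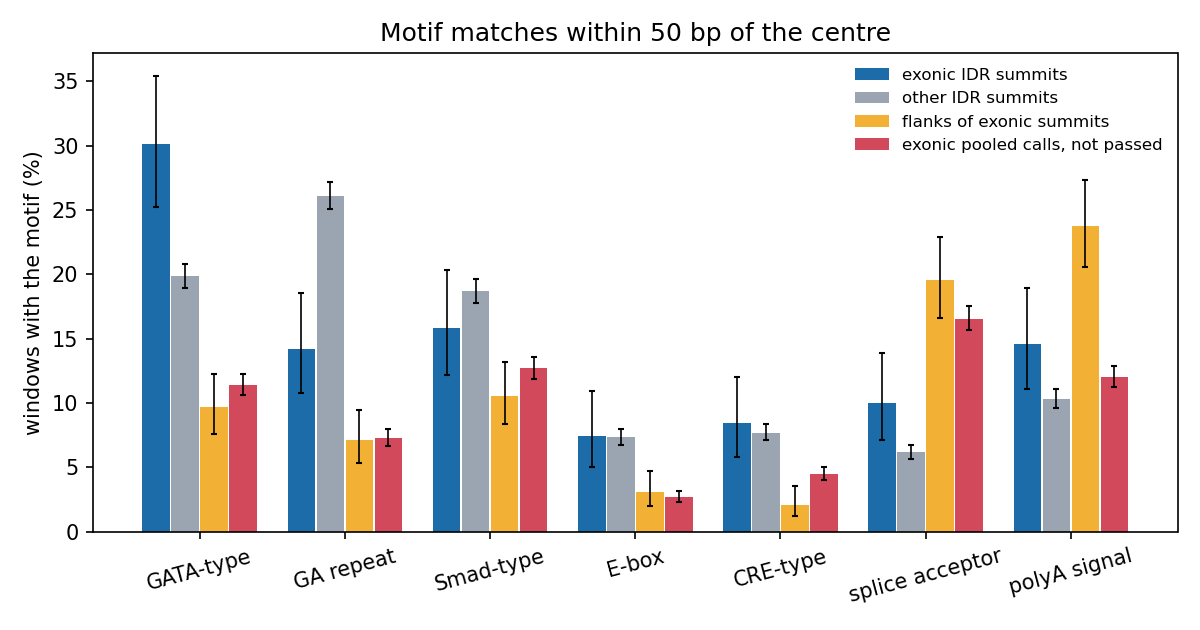
Share of windows of 50 bp on either side with a motif on either strand (y axis, percent), for exonic IDR summits (n = 309), other IDR summits (n = 6756), windows centred 250 bp to either side of exonic summits (n = 618) and exonic pooled calls that did not pass (n = 5995), with 95% Wilson intervals. The GATA-type bar is highest at exonic summits, at 30.1%, and the GA repeat is highest at other IDR summits, at 26.1%.

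Several gene families had no exonic summit. Of all protein-coding genes 298 of 19973 had one (1.49%). None was found in 78 ribosomal protein genes, 72 histone genes, 156 col collagen genes, 22 hsp heat shock genes or the 19 listed genes of the DBL-1 pathway, which include sma-9 itself. At 1.49% a list of 19 to 156 genes holds few or none, so these zeros separate the lists from other genes weakly. Of the ceh homeobox genes 1 of 63 had one, ceh-60, a PBC-type homeobox gene of intestinal gene control, with a coding summit of 83.4 (36.7 and 42.0).

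Of the nhr genes, which encode nuclear hormone receptors, 9 of 269 had an exonic summit (3.35%, Wilson interval 1.77 to 6.24%). The 3 strongest were in 5′ UTRs. The summit of nhr-56 had 196 (108 and 86.5) at 44 bp from its 5′ end, that of nhr-131 had 168 with 98.4 in replicate 1 and no call in replicate 2, and that of nhr-8, a receptor with roles in sterol metabolism and xenobiotic resistance, had 133 (59.0 and 73.8) at 6 bp. Other symbol families were counted after the values had been seen and are given for having 3 or more such genes. The cyp cytochrome P450 genes had 4 of 74 and the ugt glucuronosyltransferase genes 4 of 67, both enzyme families of xenobiotic metabolism. The dpy genes had 3 of 25, the gst glutathione transferase genes 3 of 44 and the twk potassium channel genes 3 of 44. Being chosen by this count, these families were not set against the share of all genes. The clec genes of C-type lectin-like proteins had 2 of 240.

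The glyceraldehyde 3-phosphate dehydrogenase genes gpd-2 and gpd-3 both had a coding summit on X, at 63.6 and 75.3, and replicate 2 had no call at either. The genes are near-identical copies, and how the authors placed reads that match both is not given in the sources used here, so the 2 summits are uncertain as separate sites.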

How the data were processed

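Peak lists of 2 biological replicates on build ce11 (WBcel235) were used. Per the file headers, the list of a replicate came from its alignments plus 1 further file, shared with the control-normalized signal. A pooled list came from both replicates and the IDR list from all 3. The authors deposited a peak signal, a −log10 q-value (4.17 at every IDR peak) and a summit offset for each peak. No source used here gives the aligner, the caller or the IDR threshold. The lists hold no read counts, so depth is unknown.

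Summits were classed against Ensembl release 115 with Python 3.11.15 (pandas 2.3.3, numpy 2.4.6), coding sequence before 5′ UTR before 3′ UTR, over 19973 protein-coding genes with 29304 distinct 5′ ends. The classification was checked on random positions against a plain interval scan. Shares carry 95% Wilson intervals and differences Newcombe intervals. No test over samples was possible with 1 group. Named are the 10 strongest summits of each class, genes with 2 or more (at most 10), up to 3 genes per list and the weakest of each class. The members and gene lists were chosen with earlier results of these data known. Coordinates are 1-based. Nothing was converted between builds, and the ce10 lists were not used.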

Additional observations from a re-analysis of the deposited data

How the results depend on the processing

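Of 35 alternative values, 19 stayed within the interval of the reported value or, for counts, within 1.5 times of it. The number of exonic summits was 364 with an upstream zone of 500 bp, 239 with 2000 bp, 310 by peak midpoints and 311 with stop codons counted as coding. Leaving out 1 replicate and taking as many of the strongest calls of the other gave 316 to 382. At the summits of the IDR list, read with the signals of 1 replicate, the exonic median was 82.1 to 82.2% of that of all IDR summits. The exonic share was 2.77% among the stronger IDR peaks. Calls among the strongest of both replicates lay over 60.8% of exonic summits. Within 500 bp downstream of a 5′ end lay 42.1% and within 2000 bp 78.96%. The median GC content was 40.3% with 100 bp on either side. Motif shares changed with window length by construction. With 25 bp they were 8.41% for GTCTG, 15.2% for TGATAA, 7.77% for GAGAGA, 5.50% for TTTCAG and 5.18% for AATAAA. With 100 bp they were 26.9%, 42.7%, 26.2%, 23.6% and 27.5%, and 12.6% for TGACGT. At all 3 lengths TGATAA was more frequent at exonic than at other IDR summits, by 4.82, 10.2 and 12.2 points, and GAGAGA less frequent. No paired analysis was possible because there is only 1 group of samples. The excess of AATAAA over other IDR summits was 1.12 points with 25 bp and -0.334 points (-5.14 to 5.00) with 100 bp, and the cause was not tested. Depth is unknown, and the 2 replicates limit the precision.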
